A study of Caenorhabditis elegans with 10 samples.

Results

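Secreted and membrane proteins fold in the endoplasmic reticulum (ER), where protein disulfide isomerases make and rearrange disulfide bonds, the oxidase ERO-1 keeps those isomerases oxidized, and chaperones hold chains that are not yet folded. Calreticulin and calnexin bind chains that carry N-linked sugars, the ER member of the Hsp90 family acts on a smaller set of clients, and J-domain proteins direct the ER Hsp70 to its substrates. In C. elegans these genes serve tissues that export much protein, among them the hypodermis and other cells that lay down collagen, and body wall muscle, which builds basement membrane. Many are induced by the unfolded protein response (UPR), whose sensors lie in the ER membrane.

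The genes described are 10 members of this machinery, a list of named genes drawn up with earlier results of these data known: the isomerases pdi-1, pdi-2, pdi-3 and pdi-6, the thioredoxin-domain gene txdc-12.1, the oxidase ero-1, the lectin chaperones crt-1 and cnx-1, the Hsp90 gene enpl-1 and the J-domain gene dnj-7. All 10 were found among the 46756 gene identifiers of the count table, and all 10 were among the 16817 genes that passed the filter on low counts. Their lowest count in any library was 287, for txdc-12.1, so none of them passed the filter through 1 strain alone.

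Polyadenylated RNA came from whole early L1 hermaphrodites, with 5 libraries of pbrm-1(TS-KO) and 5 of pbrm-1(control), numbered 1, 4, 5, 6 and 7 in each strain. Both strains carry pbrm-1(rd31[pbrm-1::GFP(flox)]), in which the gene for a subunit of the PBAF chromatin remodelling complex is tagged with GFP and flanked by lox sites. pbrm-1(TS-KO), strain RA678, adds the insertion rdIs74, which makes the fusion GFP-nanobody::ZIF-1 and, as a separate protein, Cre from the hnd-1 promoter. The locus is thereby recombined and the tagged protein degraded in mesodermal cells. These are chiefly body wall muscle, with the somatic gonad precursors among the others. pbrm-1(control), strain RA685, adds rdIs79[hnd-1p::ZIF-1] alone and keeps pbrm-1 function. In both strains a loss-of-function allele of unc-119 is homozygous and is rescued by the C. briggsae gene. The study found adults of both strains slower than wild type and proposed incomplete rescue as the reason. Each genotype is a single transgenic line, and the study noted that some pbrm-1(TS-KO) larvae had lost the gene in all cells through recombination in the mother. Embryos from hypochlorite-treated adults at 20°C hatched overnight without food, and both strains were reared together on a different day for each replicate number, so libraries with the same number form a pair.

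The libraries held between 35922561 and 46553938 counts on genes. Levels are given as CPM, the counts of a gene scaled to the normalized size of its library. A gene was called when its p, adjusted over all genes tested by the Benjamini-Hochberg method in edgeR's quasi-likelihood test, was at most 0.05. The level of pbrm-1 itself was 233 to 265 CPM in pbrm-1(TS-KO) against 224 to 286 CPM in pbrm-1(control). edgeR gave it an adjusted p of 0.433 at a log2 fold change of -0.09, so whole-animal counts over the whole gene did not separate the strains. Recombination removes only the last exons of pbrm-1, and the study, testing exon by exon, reported most of them significantly lower in pbrm-1(TS-KO). Single exons were not counted here. hnd-1, whose promoter drives the transgenes, stayed under 1 CPM in every library and was not tested. Markers of body wall muscle, pharyngeal muscle, intestine, hypodermis, neurons and germline were present in all libraries. Of 6 markers of carried-over adults or embryos, the sperm gene msp-3 was at 0 throughout, but the list as a whole was not. In pbrm-1(control) its sum lay between 12.3 and 20.9 CPM, overlapping the pbrm-1(TS-KO) range of 9.52 to 13.5 CPM. Of the 3 such markers tested, 2 had lower means in pbrm-1(TS-KO), 1 had a higher mean and edgeR called 0. A fit with a term for each replicate pair called 1 lower. Because the RNA is from whole larvae, fewer cells of a type and less RNA per cell cannot be told apart.

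One control library stood apart in genes of molting and new cuticle. In pbrm-1(control) replicate 5 the summed level of 14 genes of molting and new cuticle was 956 CPM, against 50.2 to 114 CPM in the other 4 control libraries and 53.96 to 81.5 CPM in pbrm-1(TS-KO). Control replicates 1, 4 and 6, at 114, 94.7 and 92.5 CPM, also lay above all pbrm-1(TS-KO) libraries, and control replicate 7, at 50.2 CPM, lay below them. Replicate 5 also had the highest level within pbrm-1(control) for 6 of the 10 ER genes. The part of this difference in molting genes in the results was not tested. Values from a fit without pbrm-1(control) replicate 5 are given for the 10 genes as a set and for some single genes and lists.

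Expression of the ER folding genes was lower in pbrm-1(TS-KO). Of the 10 genes, 8 were called lower (pdi-1, pdi-2, pdi-3, pdi-6, ero-1, txdc-12.1, crt-1 and enpl-1) and 0 were called higher, where 4.28% of all genes tested were called lower and 3.44% higher. The other genes were dnj-7, which had a lower mean, and cnx-1, which had a higher one and was the 1 gene higher at an unadjusted p under 0.05. DESeq2 and limma-voom also called 0 of the 10 higher. The median log2 fold change of the 10 was -0.32, against 0.000453 for all genes tested, of which 49.9% had a negative value. For the same 8 genes all 5 pbrm-1(TS-KO) libraries lay below all 5 pbrm-1(control) libraries, which was so for 4.91% of genes tested. Without pbrm-1(control) replicate 5 the count of genes called lower was 6, beside 3.22% of all genes, with pdi-6 and ero-1 no longer called and a median log2 fold change of -0.29. In a fit with a term for each replicate pair (the replicate block), edgeR called 9 of the 10 lower and 1 higher, beside 6.05% and 4.8% of all genes.

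**Figure D1:**
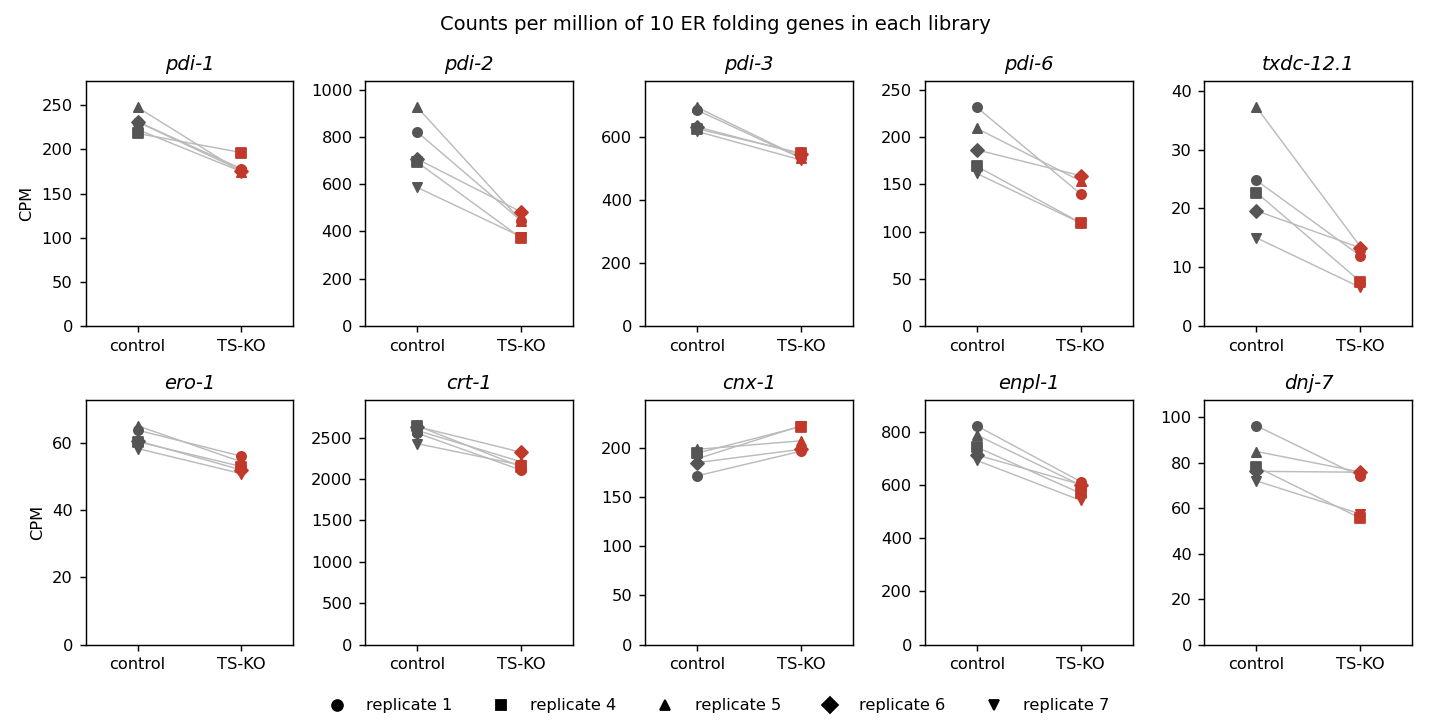
Level of each of the 10 genes in CPM (y axis, starting at 0) in the 5 pbrm-1(control) libraries (grey) and the 5 pbrm-1(TS-KO) libraries (red), with marker shapes for replicate numbers and lines joining the libraries of 1 number. All red points lie below all grey points for 8 genes, the groups overlap for dnj-7 and cnx-1, and cnx-1 is the gene whose lines all rise.

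Within each of the 5 pairs 9 of the 10 genes had the lower value in pbrm-1(TS-KO). The median log2 difference of the 10 genes within a pair was -0.38 for replicate 1, -0.34 for replicate 4, -0.39 for replicate 5, -0.23 for replicate 6 and -0.34 for replicate 7. The same median over all genes tested lay between -0.0222 and 0.00596. The difference was thus present on each day, and it was smallest in pair 6.

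Among the disulfide isomerases, pdi-2 changed most. Its product, PDI-2, is both an isomerase and the beta subunit of the collagen prolyl 4-hydroxylases, enzymes that hydroxylate proline in cuticle collagens. pdi-2 (WBGene00003963, X:4524155-4526536, forward strand, WBcel235) had 821, 693, 926, 707 and 586 CPM in pbrm-1(control) replicates 1, 4, 5, 6 and 7. In pbrm-1(TS-KO) the values of pdi-2 in the same order were 445, 372, 445, 483 and 378 CPM. The groups did not overlap, with the lowest control library, replicate 7, well above the highest pbrm-1(TS-KO) library, replicate 6, and replicates 4 and 7 were the lowest in both strains. The mean of pdi-2 in pbrm-1(TS-KO), 425 ± 47.9 CPM (SD, n = 5), was 56.9% of the mean in pbrm-1(control), 747 ± 130 CPM (SD, n = 5). On the log2 scale pdi-2 changed by -0.81 (SE 0.118), with an adjusted p of 0.00217 in edgeR, and within pairs pdi-2 stood between 48.1% and 68.3% of its control. Exons of pdi-2 share 18 bases with a noncoding gene on the same strand, C07A12.19.

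The other isomerases fell by less. pdi-1 (WBGene00003962, III:3699739-3701461, reverse strand) had 232, 218, 248, 231 and 223 CPM in the control replicates 1, 4, 5, 6 and 7, and 178, 196, 174, 176 and 175 CPM in the pbrm-1(TS-KO) replicates. Replicate 4 was the highest pbrm-1(TS-KO) library for pdi-1 and the lowest control, and pair 4 had its smallest difference. Its log2 fold change was -0.36 (SE 0.0489), with an adjusted p of 0.00161 in edgeR.

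pdi-3 (WBGene00003964, I:7015908-7020797, reverse strand), which is most like the mammalian isomerase that works with calnexin and calreticulin, had 686, 627, 695, 632 and 618 CPM in the control libraries in the same order and 533, 549, 534, 546 and 527 CPM in pbrm-1(TS-KO). Its pbrm-1(TS-KO) libraries were the tightest of the set, with a coefficient of variation of 1.71%, and the groups did not overlap. Its log2 fold change was -0.28 (SE 0.0434), with an adjusted p of 0.00363 in edgeR.

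pdi-6 (WBGene00015168, X:7066342-7068563, reverse strand) had 232, 169, 209, 187 and 162 CPM in the control libraries and 140, 109, 154, 159 and 109 CPM in pbrm-1(TS-KO). The strains were separated by a narrow margin for pdi-6, and replicates 4 and 7 were the lowest in both. For pdi-6 the log2 fold change was -0.51 (SE 0.131), with an adjusted p of 0.0363 in edgeR. This call was the least stable of the isomerases: it was lost in 11 of 15 fits that left out 1 library or 1 pair, with an adjusted p of 0.0771 without pbrm-1(control) replicate 5 and up to 0.103 without replicate 1 in edgeR. Those were the fits without replicate 1, 4 or 7 of pbrm-1(TS-KO), without replicate 1, 5 or 6 of pbrm-1(control), and without each of the 5 pairs.

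txdc-12.1 (WBGene00013263, II:12240388-12242085, forward strand), which encodes a small protein with a thioredoxin domain, had the largest fold change and the lowest counts. It had 24.8, 22.7, 37.2, 19.6 and 15.01 CPM in the control replicates 1, 4, 5, 6 and 7, and 11.9, 7.54, 13.5, 13.3 and 6.56 CPM in pbrm-1(TS-KO). The groups did not overlap, although the gap between the lowest control, replicate 7, and the highest pbrm-1(TS-KO) library, replicate 5, was small. The mean of txdc-12.1 in pbrm-1(TS-KO) was 44.2% of the control mean, with a log2 fold change of -1.18 (SE 0.262) and an adjusted p of 0.0203 in edgeR. The log2 fold change of txdc-12.1 was -0.96 without pbrm-1(control) replicate 5, with an adjusted p of 0.0362 in edgeR. The call was lost without pair 1, pair 4 or pair 6, with an adjusted p of up to 0.0807 in edgeR. Its 95% interval, from -1.75 to -0.60, was the widest of the 10 genes.

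ero-1 (WBGene00001334, I:14664449-14674841, forward strand) encodes the oxidase that passes electrons from the isomerases to oxygen. It had 63.7, 60.3, 65.0, 60.6 and 58.3 CPM in the control libraries and 56.0, 52.9, 54.3, 51.9 and 50.8 CPM in pbrm-1(TS-KO). The shift of ero-1 was small and even, with pair differences between -0.26 and -0.19 on the log2 scale. The log2 fold change was -0.21 (SE 0.0464), with an adjusted p of 0.0188 in edgeR. The call was lost without pbrm-1(control) replicate 5 (adjusted p 0.0519 in edgeR), without pbrm-1(TS-KO) replicate 6, and without pair 4, pair 5 or pair 6 (up to 0.0934).

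**Figure D2:**
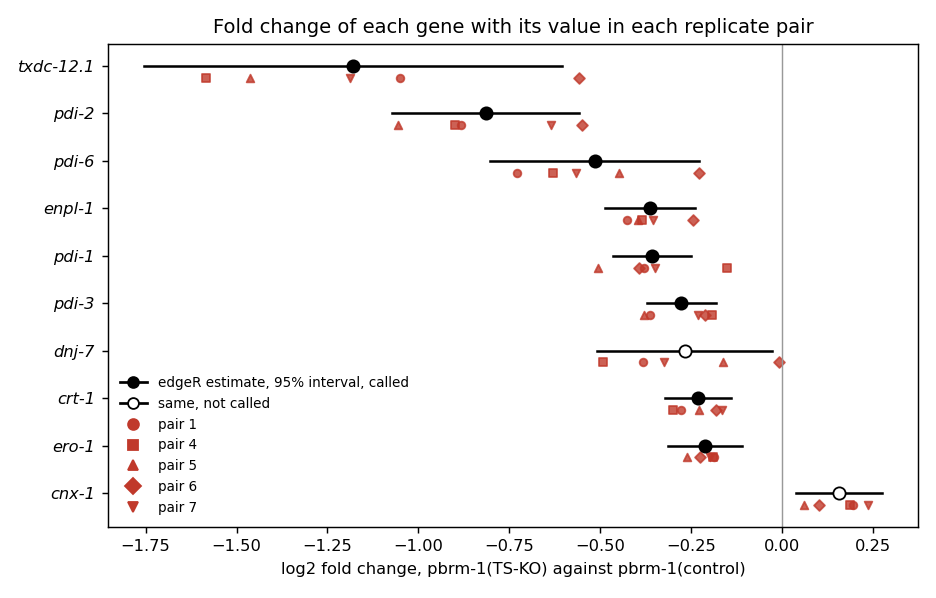
Log2 fold change of each gene in pbrm-1(TS-KO) against pbrm-1(control) (x axis), as the edgeR estimate with its unadjusted 95% interval (black, filled where called), with the 5 differences within replicate pairs below it (red, 1 shape for each pair). The estimates run from -1.18 for txdc-12.1 to 0.16 for cnx-1, and pair 6 (diamonds) has the smallest difference for pdi-2, pdi-6, txdc-12.1, enpl-1 and dnj-7.

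Of the lectin chaperones, crt-1 was called lower and cnx-1 was not called. crt-1 (WBGene00000802, V:6098992-6100542, reverse strand) encodes calreticulin, which binds calcium and sugar-bearing chains in the ER lumen, and was the most abundant of the 10 genes. It had 2554, 2643, 2586, 2632 and 2427 CPM in the control replicates 1, 4, 5, 6 and 7, and 2107, 2147, 2207, 2323 and 2167 CPM in pbrm-1(TS-KO). The groups did not overlap for crt-1, and both strains were tight, with coefficients of variation of 3.38% in pbrm-1(control) and 3.77% in pbrm-1(TS-KO). For crt-1 the log2 fold change was -0.23 (SE 0.0414), with an adjusted p of 0.00699 in edgeR. Exons of crt-1 share 92 bases with smut-1 on the other strand, and whether the counting used strand is not given in the sources used here.

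cnx-1 (WBGene00000567, III:9814364-9817137, reverse strand) encodes calnexin, the membrane-bound relative of calreticulin. It had 171, 194, 198, 185 and 189 CPM in the control libraries and 196, 221, 207, 198 and 222 CPM in pbrm-1(TS-KO). The value was higher in pbrm-1(TS-KO) in 5 of 5 pairs, but the groups overlapped, since control replicate 5 reached the level of pbrm-1(TS-KO) replicates 1 and 6. For cnx-1 the log2 fold change was 0.16 (SE 0.0536; unadjusted 95% interval 0.0398 to 0.27), with an adjusted p of 0.100 in edgeR. With the replicate block the adjusted p was 0.0446 in edgeR and 0.0553 in DESeq2. Exons of cnx-1 share 49 bases with ZK632.14 on the other strand.

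enpl-1 (WBGene00011480, IV:11119298-11123155, forward strand) encodes endoplasmin, the ER Hsp90. It had 825, 745, 790, 715 and 695 CPM in the control libraries and 614, 570, 601, 603 and 544 CPM in pbrm-1(TS-KO), with no overlap. The log2 fold change of enpl-1 was -0.36 (SE 0.0560), with an adjusted p of 0.00334 in edgeR, and the pair differences ranged from -0.43 to -0.25. Exons of enpl-1 share 23 bases with spo-11 on the other strand.

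dnj-7 (WBGene00001025, X:7194564-7198291, forward strand) encodes a J-domain protein related to a mammalian ER cofactor of Hsp70. It had 96.2, 78.1, 84.9, 76.1 and 71.9 CPM in the control libraries and 73.9, 55.5, 75.9, 75.8 and 57.4 CPM in pbrm-1(TS-KO). Its value was lower in pbrm-1(TS-KO) in 5 of 5 pairs, but pair 6 had a log2 difference of only -0.00732, and the groups overlapped. The log2 fold change of dnj-7 was -0.27 (SE 0.110; unadjusted 95% interval -0.51 to -0.0268), with an adjusted p of 0.164 in edgeR. With the replicate block the adjusted p was 0.0460 in edgeR and 0.00703 in DESeq2. Of the 10 genes, pdi-1, pdi-2, pdi-3, crt-1 and enpl-1 were called lower in all 15 fits that left out a library or a pair.

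The 10 genes spanned a wide range of levels. In CPM per kilobase of exon, which allows comparison between genes, crt-1 led in pbrm-1(control) at 1833 ± 61.9 (SD, n = 5). pdi-2 followed at 393 ± 68.5, pdi-3 at 382 ± 20.97, enpl-1 at 284 ± 20.2 and pdi-1 at 146 ± 7.18. pdi-6 was at 117 ± 17.6, cnx-1 at 87.6 ± 4.86, dnj-7 at 41.5 ± 4.82, txdc-12.1 at 35.4 ± 12.4 and ero-1 at 34.6 ± 1.54. The levels of pdi-2 and pdi-3 differed by less than the SD of pdi-2, and those of dnj-7, txdc-12.1 and ero-1 by less than the SD of txdc-12.1. The fold range from ero-1 to crt-1 was 52.9.

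**Figure D3:**
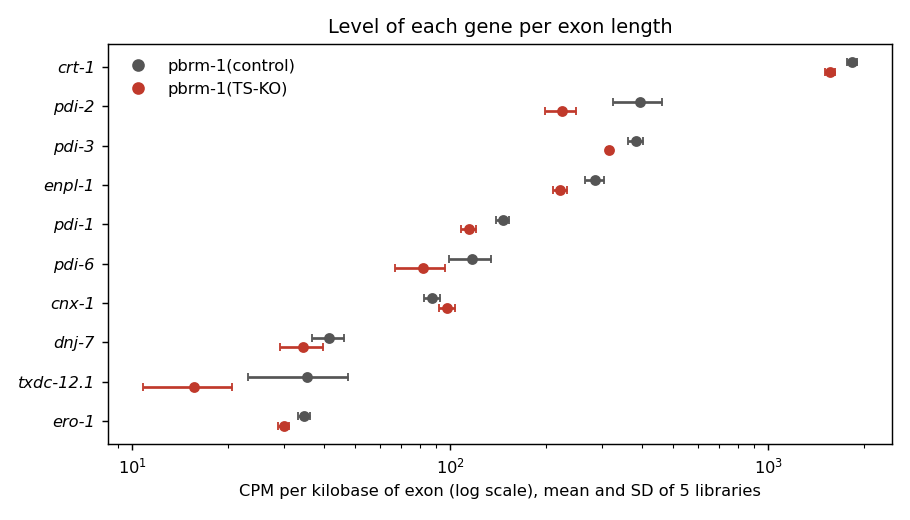
Level of each gene in CPM per kilobase of exon (x axis, log scale), as the mean and SD of 5 libraries of pbrm-1(control) (grey) and of pbrm-1(TS-KO) (red). In pbrm-1(control) pdi-2 and pdi-3 are level at 393 and 382, in pbrm-1(TS-KO) pdi-2 is below pdi-3 at 224 against 315, and cnx-1 is above pdi-6 at 97.7 against 81.7.

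The order changed in pbrm-1(TS-KO) at 3 places. pdi-2, at 224 ± 25.2 CPM per kilobase (SD, n = 5), was now below pdi-3 at 315 ± 5.40 and next to enpl-1 at 221 ± 10.9. pdi-6, at 81.7 ± 14.5, was below cnx-1 at 97.7 ± 5.75, though by little more than the SD of pdi-6. txdc-12.1 was last at 15.7 ± 4.86, with ero-1 above it at 29.9 ± 1.145.

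The summed level of the 10 genes was 4394 ± 158 CPM in pbrm-1(TS-KO) and 5497 ± 304 CPM in pbrm-1(control) (SD, n = 5), or 79.9% of the control. Single libraries of pbrm-1(TS-KO) had sums of 4237 to 4630 CPM, below the 5044 to 5839 CPM of pbrm-1(control). Of the summed decrease of the 9 lower genes, 33.6% lay in crt-1 and 28.6% in pdi-2, so the abundant genes made up most of it although crt-1 changed little in proportion. txdc-12.1, with the largest fold change, held 1.18% of it.

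Some libraries of 1 strain were low or high for many of the genes, which was not tested. Replicate 7 was the lowest control library for 8 of the 10 genes. Replicate 5 was the highest control for 6 and replicate 1 for 3. In pbrm-1(TS-KO) replicate 7 was the lowest for 5 genes, while the highest library was replicate 1, 4 or 5 for 2 genes each, replicate 6 for 3 and replicate 7 for 1. There replicates 4 and 7 were the lowest pair of libraries for pdi-2, pdi-6, txdc-12.1, enpl-1 and dnj-7. In pbrm-1(control) the same numbers were the lowest pair for pdi-1, pdi-2, pdi-3, pdi-6 and ero-1. The coefficient of variation was largest for txdc-12.1, at 34.9% in pbrm-1(control) and 31.0% in pbrm-1(TS-KO), and between 11.3% and 17.8% for pdi-2, pdi-6 and dnj-7 in either strain.

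Whether related genes moved by unequal amounts was tested with 3 ratios of counts within a library, which do not depend on library size. The permutations treated the libraries as unpaired. Sign flips within the 5 pairs, a test added after the data were seen, gave an exact p of 0.0625 for each ratio, the smallest that 5 pairs allow, so none of the 3 can pass the threshold with the pairing. The ratio of pdi-2 to pdi-3 was 0.789 ± 0.0875 in pbrm-1(TS-KO) and 1.14 ± 0.140 in pbrm-1(control) (SD, n = 5). It was lower in 5 of 5 pairs and the groups did not overlap, with a log2 difference of -0.53, an exact two-sided permutation p of 0.00794, the smallest that 5 against 5 libraries allow, and an adjusted p of 0.0119 over the 3 ratios.

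The ratio of cnx-1 to crt-1 was 0.0956 ± 0.00739 in pbrm-1(TS-KO) and 0.0731 ± 0.00444 in pbrm-1(control) (SD, n = 5). It was higher in 5 of 5 pairs without overlap, with a log2 difference of 0.39, an exact permutation p of 0.00794 and an adjusted p of 0.0119. A ratio does not show which of its genes changed.

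The ratio of txdc-12.1 to its paralog txdc-12.2 was 0.914 ± 0.217 in pbrm-1(TS-KO) and 1.42 ± 0.258 in pbrm-1(control) (SD, n = 5). It was lower in 5 of 5 pairs, with a log2 difference of -0.65, an exact permutation p of 0.0159 and an adjusted p of 0.0159. The groups met at 1 point, where control replicate 5 had a ratio of 1.10 and pbrm-1(TS-KO) replicate 6 had 1.11. txdc-12.2 in that control library was at 34.0 CPM, against 12.6 to 15.3 CPM in the other control libraries. Without pair 1, pair 4 or pair 7 the adjusted exact permutation p of this ratio was 0.0571.

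**Figure D4:**
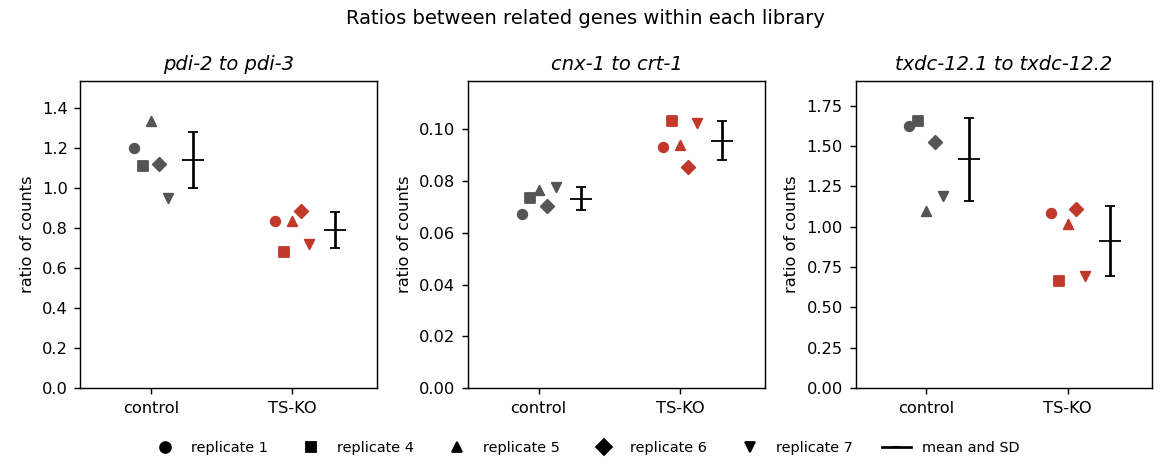
Ratio of counts within each library (y axes, starting at 0) for pdi-2 to pdi-3, cnx-1 to crt-1 and txdc-12.1 to txdc-12.2 in pbrm-1(control) (grey) and pbrm-1(TS-KO) (red), with shapes for replicate numbers and the mean and SD of 5 libraries in black. The strains are separate for the ratios on the left and in the middle, and on the right the highest pbrm-1(TS-KO) value of 1.11 meets the lowest control value of 1.10.

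The genes whose profile over the 10 libraries was closest to each member were named by the root mean square difference of log2 CPM, each gene centred on its own mean, among 8610 genes with a mean of at least 10 CPM. These are descriptions over 10 libraries that share strain and day. The closest to pdi-2 was dnj-27, which encodes an ER protein with a J domain and thioredoxin domains, at a difference of 0.0817, followed by calu-1 at 0.121, which encodes calumenin, a calcium-binding protein of the secretory pathway. The closest to txdc-12.1 was dpy-18, at 0.239, which encodes an alpha subunit of the collagen prolyl 4-hydroxylase that PDI-2 joins. pdi-6 was closest to hsp-3 at 0.0922, an ER Hsp70 gene.

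The nearest genes of the other members had various annotations. ero-1 was closest to ribo-1 (0.0380), an oligosaccharyltransferase subunit, crt-1 to spcs-3 (0.0366), a signal peptidase subunit, and enpl-1 to sft-4 (0.0506), which encodes a cargo receptor for ER exit. The nearest to pdi-3 was sek-3 (0.0357), a kinase gene, followed by sft-4 (0.0461) and deb-1 (0.0467). The closest to pdi-1 was F53H2.3 (0.0487), to dnj-7 srlf-1 (0.0675) and to cnx-1 syf-1 (0.0351), a splicing factor gene. The second nearest was lgx-1 for txdc-12.1 (0.341), del-10 for pdi-6 (0.0956), lin-3 for enpl-1 (0.0586) and C38H2.2 for pdi-1 (0.0532). For ero-1 it was Y105E8A.2 (0.0413), for crt-1 Y76B12C.3 (0.0442), for dnj-7 fitm-2 (0.0686) and for cnx-1 rfc-1 (0.0412).

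The genes around these 10 were described from lists of the same machinery. Their counts stand beside 4.28% of all genes tested called lower and 3.44% called higher by edgeR. Of 9 other ER thioredoxin-fold and oxidase genes, 3 were called lower and 0 higher by edgeR, and their log2 fold changes had a median of -0.18. At an unadjusted p under 0.05, 1 of them, Y49E10.4, was higher. dnj-27 had -0.83 (adjusted p 0.00178 in edgeR), C14B9.2, an isomerase gene, had -0.43 (0.0199), and F47B7.2, a sulfhydryl oxidase gene, had -0.33 (0.0178). txdc-12.2 was at -0.63, with 0.164 as its adjusted p in edgeR. The other 5 genes of this list had values between -0.18 and 0.28 and were not called. The count called lower was again 3 in each fit without 1 library, including pbrm-1(control) replicate 5, and 1 without pair 1 or pair 6.

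Of 6 ER Hsp70 genes and cofactors, edgeR called 4 lower and 0 higher, the latter also at an unadjusted p under 0.05, and the median was -0.29 on the log2 scale. The BiP gene hsp-4, which the UPR induces, had -1.43 (adjusted p 0.00688 in edgeR) and the other BiP gene, hsp-3, had -0.43 (0.0242). T14G8.3, an Hsp70-like gene, had -0.52 (0.00542) and dnj-29, a J-domain gene, -0.16 (0.0459). dnj-29 was not called with the replicate block, with an adjusted p of 0.0566 in edgeR, and without pbrm-1(control) replicate 5 neither hsp-3 (0.0546) nor dnj-29 (0.0845) was called. The count called lower was also 2 without pbrm-1(TS-KO) replicate 4 and without pair 1, pair 4, pair 5 or pair 6. Over the 15 fits that left out a library or a pair, dnj-29 lost its call in 13, hsp-3 in 6, and hsp-4 and T14G8.3 in 0.

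Of 10 genes of the glycoprotein folding cycle and the oligosaccharyltransferase, 2 were called lower and 1 higher, with a median of -0.17. aagr-4, a glucosidase gene, had -2.11 (adjusted p 0.00168 in edgeR) and ribo-1 had -0.21 (0.0368). uggt-2, of the family that senses misfolded glycoproteins, had 0.39 (0.0248) at a level of 3.86 CPM in pbrm-1(control). With the replicate block 4 of these genes were called lower, the added ones being the oligosaccharyltransferase genes ostb-1 (0.0134 in edgeR) and ostd-1 (0.0226). Without pbrm-1(control) replicate 5, aagr-4 alone of the 3 was called. Over the 15 fits that left out a library or a pair, ribo-1 lost its call in 14, uggt-2 in 9 and aagr-4 in 0.

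Of 6 prolyl isomerase genes of the secretory pathway 2 were called lower, fkb-4 at -0.61 (adjusted p 0.00672 in edgeR) and fkb-3 at -0.54 (0.0498), and the median was -0.57. fkb-3 lost its call in 13 of the 15 fits that left out a library or a pair, and fkb-4 in 0. Without pbrm-1(control) replicate 5 the count was again 2 and the median -0.16. Among 5 UPR regulators, the sensor gene ire-1 was called lower at -0.15 (0.0294), and its target xbp-1 had -0.27 with an adjusted p of 0.137 in edgeR. Without pbrm-1(control) replicate 5 the adjusted p of ire-1 was 0.0644 in edgeR, and ire-1 lost its call in 11 of the 15 fits that left out a library or a pair.

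PDI-2 acts with the alpha subunits of prolyl 4-hydroxylase, so those genes were set beside pdi-2. dpy-18 had 49.2 ± 9.86 CPM in pbrm-1(TS-KO) and 125 ± 27.2 CPM in pbrm-1(control) (SD, n = 5), a log2 fold change of -1.35 with an adjusted p of 0.00105 in edgeR. phy-2, at -1.28, was not called (adjusted p 0.181 in edgeR), and its control value rested on replicate 5, at 94.6 CPM against 12.08 to 22.4 CPM in the other control libraries. Of the 4 alpha subunit genes 3 passed the filter on low counts and 1, dpy-18, was called. The median of the 3 was -1.28, and -0.27 in the edgeR fit without pbrm-1(control) replicate 5. dpy-18 was also called without pbrm-1(control) replicate 5, with a log2 fold change of -1.27 and an adjusted p of 0.00251 in edgeR.

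Folding genes outside the ER mostly had higher means in pbrm-1(TS-KO). Of 15 cytosolic and mitochondrial chaperone genes, edgeR called 8 higher and 0 lower, beside 3.44% and 4.28% of all genes. At an unadjusted p under 0.05 also 0 were lower, and the median was 0.17 on the log2 scale. hsp-6, the mitochondrial Hsp70 gene, had 0.38 (adjusted p 0.00736 in edgeR), hsp-1, the cytosolic Hsp70 gene, 0.32 (0.0320), and the chaperonin genes cct-4, cct-2 and cct-6 had 0.32 (0.00524), 0.25 (0.0129) and 0.24 (0.0151). Over the 15 fits that left out a library or a pair the count called higher was 3 to 8. It was 8 without pbrm-1(control) replicate 5, 5 without pbrm-1(control) replicate 6, 4 without pair 4 and 3 without pair 6. Over all genes 359, 335, 304 and 154 were called higher in the same fits, in that order, against 579 with all libraries. hsp-1 lost its call in 10 of the 15 fits, cct-6 in 2, cct-2 in 1, and hsp-6 and cct-4 in 0. The difference between the ER and the cytosolic lists was not tested.

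**Figure D5:**
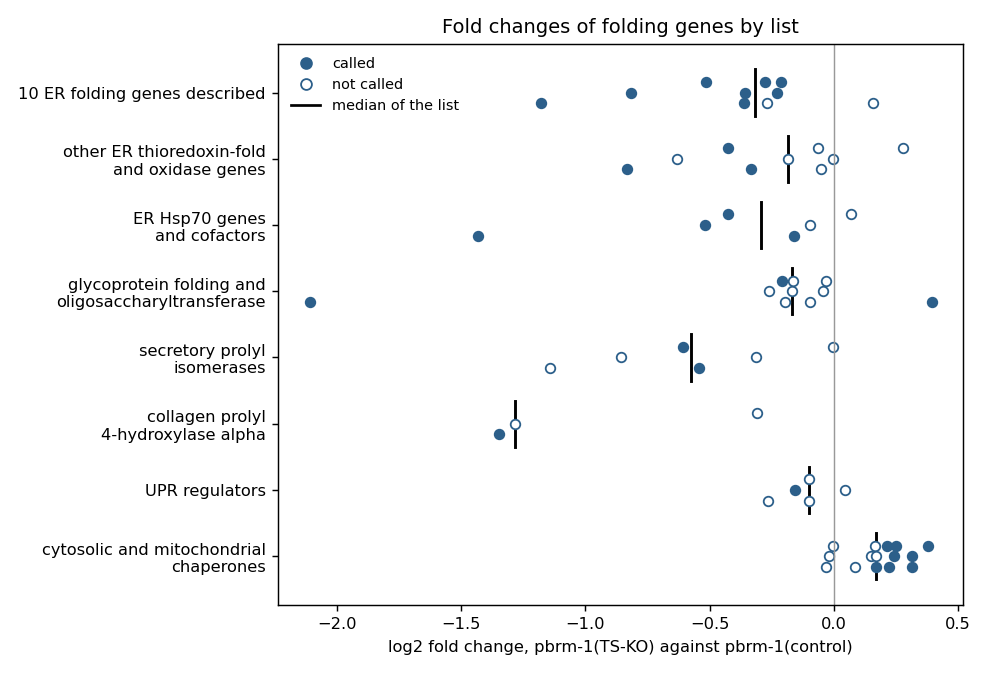
Log2 fold change in pbrm-1(TS-KO) against pbrm-1(control) (x axis) of each tested gene in 8 lists of folding genes (y axis), filled where called at an adjusted p of at most 0.05 in edgeR, with a black line at the median of each list. The medians of the ER lists lie between -1.28 and -0.10 and that of the cytosolic and mitochondrial chaperones at 0.17. The -1.28 is that of 3 collagen prolyl 4-hydroxylase genes, and it was -0.27 in the edgeR fit without pbrm-1(control) replicate 5. In that fit the median of the prolyl isomerases was -0.16 in place of -0.57. Within the ER lists cnx-1, Y49E10.4, T24H7.2, uggt-2 and atf-4 lie above 0.

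Markers of the cell types in the whole larva were set beside these results. For 4 body wall muscle genes the sum was 14632 to 18130 CPM in pbrm-1(TS-KO) libraries, against 16042 to 17448 CPM in pbrm-1(control). edgeR called 0 of the 4, as it did at an unadjusted p under 0.05. Other body wall muscle genes were not listed here. The study reported most muscle-function genes among its differentially expressed genes as lower in pbrm-1(TS-KO). Both pharyngeal muscle genes tested had lower means in pbrm-1(TS-KO), with a sum of 5196 ± 206 CPM against 5654 ± 335 CPM in pbrm-1(control) (SD, n = 5). Of these, myo-2 was lower in 5 of 5 pairs with a log2 fold change of -0.15 (adjusted p 0.0844 in edgeR), and 1 of the 2 was called lower with the replicate block. The sum of 4 hypodermis genes was 151 to 165 CPM against 141 to 231 CPM, with the 231 in control replicate 5. edgeR called 0 of these 4 genes, and 1, dpy-7, was lower at an unadjusted p under 0.05. For 3 germline genes the sum was 81.7 to 94.6 CPM in pbrm-1(control) and higher, at 95.7 to 112 CPM, in pbrm-1(TS-KO), with glh-1 called higher. Of the 3, nos-1 went the other way and was lower in 5 of 5 pairs. Its log2 fold change was -0.18, with an adjusted p of 0.409 in edgeR. Sums of 4 neuronal genes were 1965 to 2378 CPM in pbrm-1(control), overlapping the 2336 to 2464 CPM of pbrm-1(TS-KO), and those of 3 intestinal genes were 130.3 to 154 CPM against 131 to 137 CPM. edgeR called 0 genes in both lists. At an unadjusted p under 0.05 the neuronal gene egl-3 was higher, at 0.17 on the log2 scale, and the intestinal gene ges-1 was lower, at -0.24. All 13 tested genes of molting and new cuticle had lower means in pbrm-1(TS-KO), with 1 called, mlt-9, and a median log2 fold change of -2.11, which was -0.54, with mlt-9 not called, in the edgeR fit without pbrm-1(control) replicate 5. In that fit the log2 fold change of pdi-2 was -0.72 (adjusted p 0.00302) and that of crt-1 was -0.23 (0.0187). Beyond these fits, the part of molting genes and of cell type composition in the levels of the 10 genes was not tested.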

How the data were processed

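RNA from whole L1 larvae was polyA-selected by the authors, who trimmed the reads, mapped them with STAR 2.5.2b, used featureCounts (Subread 1.5.2) to count unique alignments to exons, and deposited these raw counts. The assembly is written WBcel325 in the methods, taken here as WBcel235, and strand use in counting is not given in the sources used here. Overlapping genes on opposite strands are therefore uncertain. Coordinates and exon lengths are from the Ensembl WBcel235 annotation, which held 46581 of 46756 identifiers.

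Counts were analysed in R 4.3.3 with edgeR 4.0.16 (filterByExpr, TMM, quasi-likelihood F test, no covariate, Benjamini-Hochberg). DESeq2 1.42.0 and limma 3.58.1 were alternatives, the latter as voom with quality weights, which weight each library. CPM are scaled to TMM library sizes, and log2 CPM within pairs used a prior count of 2. SE are approximate, being the log2 fold change over the root of its F statistic, and intervals are at 95% without adjustment. Ratios were compared with exact two-sided permutation tests over all 252 divisions of the libraries, which do not use the pairing, and by exact sign flips within pairs. Scripts were tested on simulated data. P-values measure the spread between separately reared populations.

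The genes and lists were chosen with earlier results of these data known. Named were the 10 genes, the called genes of each list (up to 5 by fold change), partners of the 10 genes, and, by profile, up to 3 nearest genes. The genes ostb-1, ostd-1 and the 5 genes above 0 in the plot of lists were named after their values were seen. Of 110 listed names 3 were not matched (ribo-2, daf-21 and opt-2).

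The strains were reared in parallel on each day, which makes same-numbered libraries pairs. The correlation of their deviations from strain means was 0.505, 0.283, 0.124, -0.0514 and 0.351 for replicates 1, 4, 5, 6 and 7, against a median of -0.0972 between different numbers. All 20 library pairs within a strain differed by more than counting noise. The differences were measured as chi-square per degree of freedom. Replicate 1 of pbrm-1(control) stood 39.0 to 43.2 from the other controls, and replicate 5 stood 28.3 to 43.2. Replicates 4, 6 and 7 of pbrm-1(control) stood 9.94 to 12.7 from each other. In pbrm-1(TS-KO) replicates 4 and 7 stood 35.3 to 42.9 from replicates 1, 5 and 6, which were 3.44 to 11.1 apart. Alternatives were the replicate block, RLE size factors, other filters on low counts, and fits without each library or pair. Promoter motifs and protein sequences of the 10 genes were not analysed here.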

Additional observations from a re-analysis of the deposited data

Results flagged for a closer look

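In groups of 5 libraries, a highest or lowest value was noted where its gap to the next was large against the range of the group (a ratio above 0.71). Of 94 groups of genes or summed markers, 9 held such a library, or 9.57%, where chance gives about 1 in 20. Among the 10 ER genes this was so for pdi-1 in pbrm-1(TS-KO), where replicate 4 had 196 CPM and the next library 178 CPM.

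In pbrm-1(control), replicate 5 was the high library for txdc-12.2 (34.0 CPM, next 15.3), F47B7.2 (73.4 CPM, next 61.7), dnj-29 (190.2 CPM, next 171), phy-2 (94.6 CPM, next 22.4), the summed hypodermis markers (231 CPM, next 164) and the summed molting and cuticle genes (956 CPM, next 114). Replicate 4 was the high control library for the summed body wall muscle markers (17448 CPM, next 16351). In pbrm-1(TS-KO), replicate 7 was the low library for hsp-1 (672 CPM, next 761).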

How the results depend on the processing

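Each of the 10 genes kept its direction under all 22 alternatives. Across leave-one-out fits the genes called lower numbered 5 to 8 and those called higher 0, and over all genes 254 to 696 were called lower and 154 to 535 higher, against 720 and 579. The log2 differences ranged from -0.58 to -0.49 for pdi-2 to pdi-3, from 0.36 to 0.41 for cnx-1 to crt-1 and from -0.78 to -0.48 for txdc-12.1 to txdc-12.2. Over all genes, DESeq2 called 1129 lower, limma-voom called 1496 lower and 1403 higher, and 374 were called higher without a filter on low counts. pdi-6 was not called by limma-voom with quality weights (adjusted p 0.0591).

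With the replicate block 1 of the 10 genes was called higher, cnx-1, and dnj-7 was added to those called lower. Under sign flips within pairs, added after the data were seen, the adjusted p of all 3 ratios was 0.0625 at unchanged log2 differences of -0.53, 0.39 and -0.65. DESeq2 with the replicate block called 1099 genes lower over all genes. The block changed no other call among the 10, and among the genes of the folding lists it ended that of dnj-29 and added ostb-1, ostd-1 and cct-5. The lowest count of any of the 10 genes was 287, for txdc-12.1. The planned searches of promoters and proteins were not run.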
